A study of Mus musculus with 2 samples.

Results

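Natural killer cells were looked for among CD45+ cells sorted from subcutaneous MC38 tumours, as barcodes with at least 2 UMIs (unique molecular identifiers, 1 per captured RNA molecule) summed over the NK genes *Ncr1*, *Klrb1c*, *Klre1*, *Eomes*, *Klra8* and *Klra4*. A barcode also had to hold at least 500 UMIs, at least 200 genes, at most 10% mitochondrial UMIs, at most 1 UMI of *Cd3d*, *Cd3e* and *Cd3g* together, and no *Trac*. The rule found 315 of the 18812 barcodes that met the quality limits, 138 in UEIS KI and 177 in UEIS LSL. The data went against the label for most of these. In 94 of the 138 UEIS KI barcodes and 114 of the 177 UEIS LSL barcodes, *Klra4* was the sole rule gene seen.

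The tumours were grown from MC38, a mouse colon adenocarcinoma line, in C57BL/6 mice labelled UEIS KI and UEIS LSL, designations whose meaning the labels leave unstated. Each group was 1 library made with the 10x Genomics 3' v3 chemistry, and the labels do not say how many mice went into it. The UEIS KI library held 9734 barcodes with 99404988 UMIs, and the UEIS LSL library 9527 barcodes with 92764697 UMIs. With 1 library per group no difference could be tested, and every interval given is a 95% interval for counting error alone, not for variation between mice. Intervals for UMI levels and their ratios treat each UMI as independent, so they also leave out the spread between cells. The same 34 barcode sequences occurred in both libraries, and 1 member of each library was among them.

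Natural killer (NK) cells are innate lymphocytes that kill stressed or transformed cells without a rearranged antigen receptor. They weigh signals from activating receptors such as NKp46 (*Ncr1*), NK1.1 (*Klrb1c*) and NKG2D (*Klrk1*) against inhibitory receptors for MHC class I, among them most Ly49 proteins (*Klra* genes) and the CD94 and NKG2A pair (*Klrd1*, *Klrc1*). Killing runs through granules with perforin, which opens the target membrane, and granzymes, proteases that enter through it. Activated NK cells also secrete interferon-gamma and the chemokines Xcl1 and Ccl5, which in mouse tumours are known to draw in dendritic cells.

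*Klra4* (Ly49D, an activating receptor; chromosome 6, 130043731 to 130067271, minus strand, GRCm38) split the members into 2 sets. A set of 39 UEIS KI and 44 UEIS LSL barcodes held at least 2 UMIs of the other 5 rule genes and is called the 5-gene barcodes here. A set of 99 UEIS KI and 133 UEIS LSL barcodes passed with *Klra4* alone or with *Klra4* and at most 1 UMI of the others, and is called the *Klra4*-only barcodes. This division was made after the values were seen. In the 5-gene barcodes *Ncr1*, *Klrb1c*, *Klre1*, *Eomes* and *Klra8* gave 77, 52, 85, 52 and 25 UMIs in UEIS KI. The same genes gave 87, 88, 74, 29 and 19 UMIs in UEIS LSL. The members were selected on these UMI counts, which are given as a description.

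**Figure D1:**
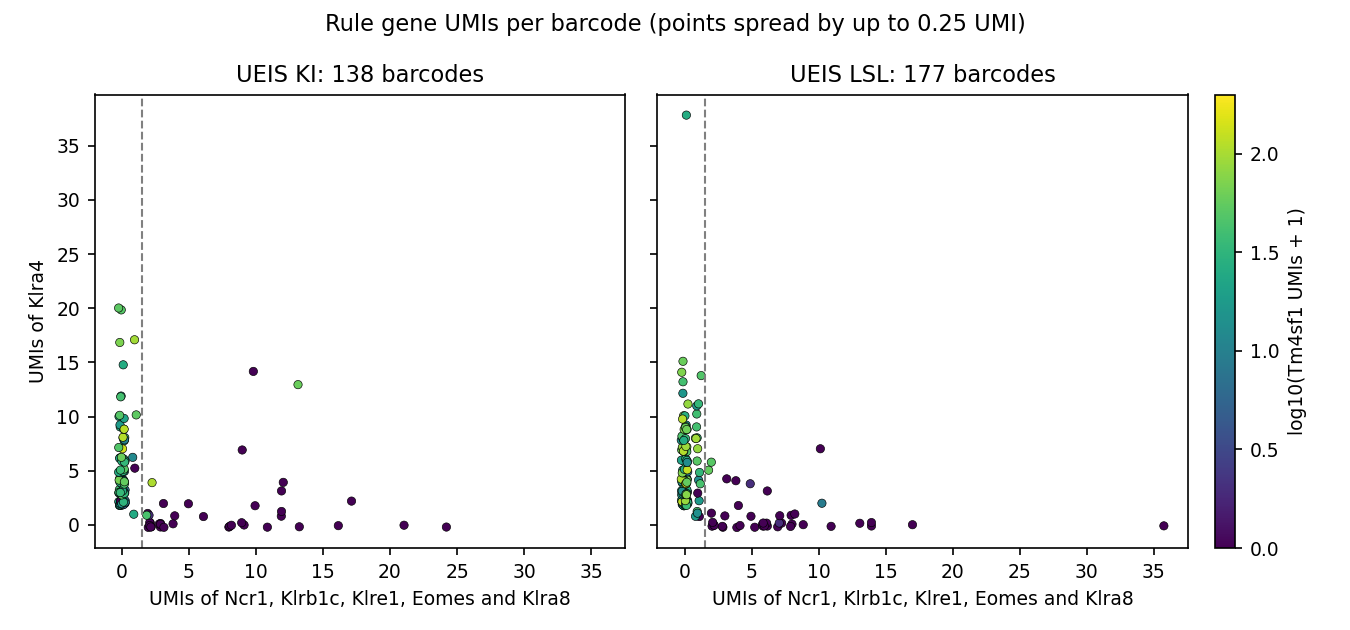
Each point is 1 barcode of the rule, with the summed UMIs of *Ncr1*, *Klrb1c*, *Klre1*, *Eomes* and *Klra8* on the x axis, *Klra4* UMIs on the y axis and log10 of *Tm4sf1* UMIs plus 1 as colour, in UEIS KI (left, 138 barcodes) and UEIS LSL (right, 177 barcodes). Points left of the dashed line are the 99 and 133 *Klra4*-only barcodes, most of them bright for *Tm4sf1*, and points right of it the 39 and 44 5-gene barcodes.

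Genes that the rule did not use separated the sets in both libraries. Of the 6 further NK genes *Klrd1*, *Klrk1*, *Klri2*, *Klrc2*, *Nkg7* and *Il2rb*, at least 2 were seen in 34 of 39 UEIS KI and 41 of 44 UEIS LSL 5-gene barcodes. None of the 6 was seen in 95 of 99 UEIS KI and 125 of 133 UEIS LSL *Klra4*-only barcodes, although these were deeper, with a median of 24207 and 28768 UMIs against 6929 and 6078.5 in the 5-gene barcodes. *Ptprc*, the gene of the CD45 antigen used for the sort, was seen in 82.1% of UEIS KI and 88.6% of UEIS LSL 5-gene barcodes, and in 12.1% and 21.1% of *Klra4*-only barcodes. The genes that led the *Klra4*-only set over all other barcodes were *Tm4sf1* at 1133 CPM (counts of a gene scaled to 1000000 UMIs of the set) in UEIS KI and 1237 CPM in UEIS LSL, *Tubb3*, *Crabp1*, *Tnnt2*, *Hmga2* and *Sox9*. A list of 6 epithelial markers gave 11 UMIs in UEIS KI and 10 in UEIS LSL over the whole set, with *Krt18* and *Cldn4* at 0 in both. All 6 fibroblast markers were seen, with a summed level of 2149 CPM in UEIS KI and 1048 CPM in UEIS LSL, against 304 and 453 CPM in the 5-gene barcodes. No cell type name is given to this set, and the account of NK cells below rests on the 5-gene barcodes. Not all 5-gene barcodes looked like NK cells in other genes. *Klre1* was the sole rule gene in 4 UEIS KI and 4 UEIS LSL barcodes. Most of these held no *Nkg7*, *Il2rb*, *Prf1*, *Gzma*, *Gzmb* or *Gzmc*. Most still showed at least 2 of the 6 further NK genes, so the selection by those genes, used below, keeps most of them. Barcodes with 104 and 43 *Tm4sf1* UMIs in UEIS KI and 49 in UEIS LSL passed on *Eomes* alone of the 5 genes, with none of the further NK genes seen.

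At the edge of the rule, 33 UEIS KI and 45 UEIS LSL members held exactly 2 UMIs of the 6 genes, and *Nkg7* stood at 21.1 and 17.1 CPM in them. Just outside it, 138 UEIS KI and 208 UEIS LSL barcodes held 1 such UMI, with *Nkg7* at 6.44 and 3.32 CPM. The limit on T cell RNA left out 7 UEIS KI and 30 UEIS LSL barcodes that held at least 2 UMIs of the 5 genes. Those carried *Ifng* at 63.9 CPM in UEIS KI (6 UMIs) and 471 CPM in UEIS LSL (191 UMIs), and *Cd8a* at 106 and 224 CPM, so they held RNA of T cell genes beside NK genes.

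The 5-gene barcodes made up 0.413% of the UEIS KI library (95% interval, exact binomial, 0.294 to 0.564) and 0.470% of the UEIS LSL library (0.341 to 0.630). The ratio of the shares was 0.880 (0.557 to 1.39), so a difference was not detectable with these numbers. It holds for barcodes within the limit on T cell RNA. That limit left out 7 UEIS KI and 30 UEIS LSL barcodes with at least 2 UMIs of the 5 genes and at least 2 further NK genes. Shares with these included were not compared. For all members of the rule the shares were 1.46% (1.23 to 1.72) in UEIS KI and 1.89% (1.62 to 2.19) in UEIS LSL, a ratio of 0.774 (0.615 to 0.972) that moved with the *Klra4*-only barcodes, whose own ratio was 0.739 (0.564 to 0.965). The sort, the tumour's make-up and the recovery of droplets all enter such shares, and their part was not tested.

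Macrophage RNA was common in the members. At least 10 UMIs of *C1qa*, *C1qb* and *C1qc*, complement genes of macrophages, were present in 27 of 138 UEIS KI members (19.6%, 13.3 to 27.2) and 44 of 177 UEIS LSL members (24.9%, 18.7 to 31.9). In the 5-gene barcodes the counts were 13 of 39 (33.3%, 19.1 to 50.2) and 14 of 44 (31.8%, 18.6 to 47.6). All 14 macrophage markers were seen there in both libraries, with a summed level of 10334 CPM in UEIS KI and 14856 CPM in UEIS LSL. Each barcode was also marked by a doublet caller, which took 4 UEIS KI and 6 UEIS LSL 5-gene barcodes. Values are therefore also given for the 26 UEIS KI and 30 UEIS LSL barcodes with fewer than 10 C1q UMIs, below called C1q-low, and for the 34 and 41 with at least 2 of the 6 further NK genes. The C1q-low barcodes were not free of such RNA, nor equal between the libraries. Their macrophage markers summed to 1365 CPM in UEIS KI and 3501 CPM in UEIS LSL, and their conventional dendritic cell markers to 309 CPM in UEIS KI and 4549 CPM in UEIS LSL. The 4 macrophage and 3 dendritic cell markers with at least 50 UMIs there had median log2 ratios of -1.22 and -5.43, UEIS KI over UEIS LSL. The C1q-low set also held UEIS KI barcodes of 41697 and 24376 UMIs, of 184665 in all, and a UEIS LSL barcode of 42363, of 201362. Those barcodes carried *Tm4sf1* and none of the 6 further NK genes. They form a larger part of the UEIS KI total, which lowers the CPM of genes they lack. The part of all this in the C1q-low values below was not tested.

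Of other cell types, conventional dendritic cell markers were seen for 7 of 10 genes in each library, at a summed 1444 CPM in UEIS KI and 3742 CPM in UEIS LSL, while *Flt3* and *Clec9a* were at 0 in both. Of 8 plasmacytoid dendritic cell markers 3 were seen in each library, at a summed 514 CPM in UEIS KI and 641 CPM in UEIS LSL, with *Siglech* at 0 in both. Of 10 markers of type 1 innate lymphoid cells, which share many genes with NK cells, 9 were seen in UEIS KI and 8 in UEIS LSL, at a summed 195 and 298 CPM, with *Zfp683* at 0 in both. Macrophage barcodes gave 210 CPM in UEIS KI and 334 CPM in UEIS LSL for the same markers, also with *Zfp683* at 0. Of 10 type 2 innate lymphoid cell markers 7 were seen in each library, at 437 and 1147 CPM, with the defining cytokines *Il13* and *Il5* at 0 in both. Of 8 type 3 markers 3 were seen in UEIS KI and 2 in UEIS LSL, at 23.6 and 7.84 CPM, with *Il22* and *Il17a* at 0 in both. *Cd8a*, *Cd8b1*, *Cd4*, *Cd5* and *Cd6* were at 0 in both libraries, while *Trbc1*, a T cell receptor constant gene that mouse NK cells are known to transcribe, gave 110 UMIs in 26 UEIS KI barcodes and 45 UMIs in 20 UEIS LSL barcodes. *Tm4sf1* was seen in 4 UEIS KI and 5 UEIS LSL 5-gene barcodes, with 206 and 114 UMIs.

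**Figure D2:**
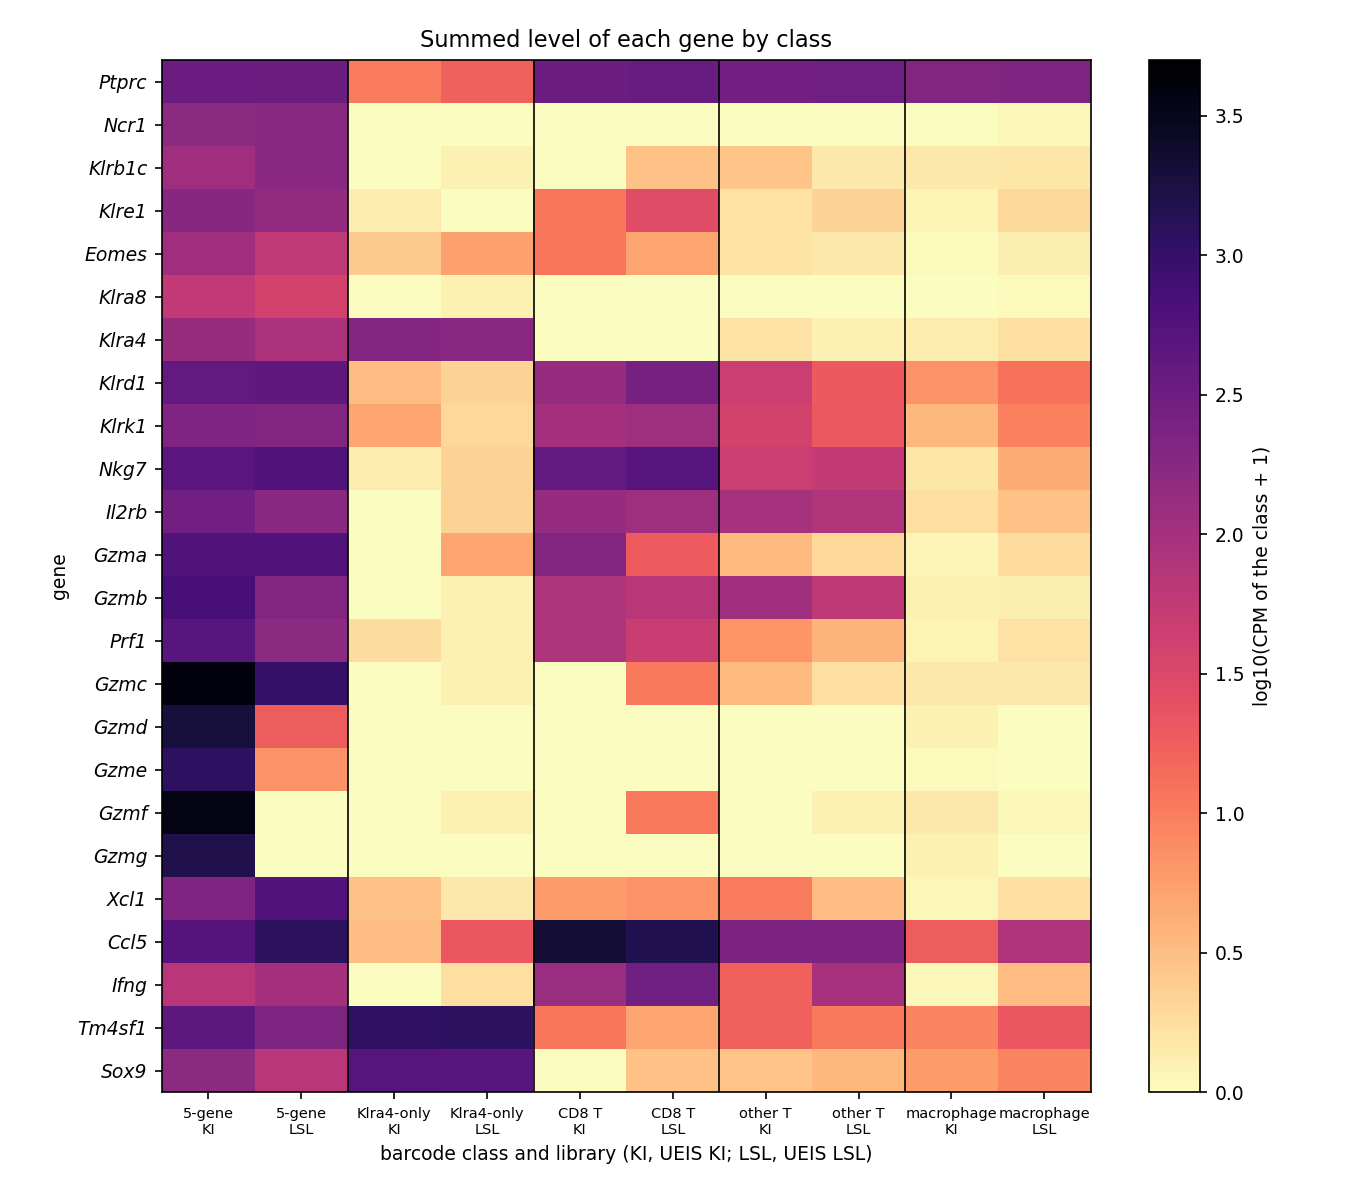
Colour gives log10 of the summed CPM plus 1 of each gene (rows) in 5 classes of barcodes (columns), each with UEIS KI left of UEIS LSL. The 5-gene barcodes hold the NK genes, perforin and the granzymes, the *Klra4*-only barcodes hold *Klra4*, *Tm4sf1* and *Sox9*, and *Gzmd* to *Gzmg* are darkest in the UEIS KI 5-gene column.

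The granzymes set the libraries furthest apart. *Gzmc*, *Gzmd*, *Gzme*, *Gzmf* and *Gzmg* lie in 1 cluster on the minus strand of chromosome 14, between 56117626 (the end of *Gzme*) and 56234656 (the start of *Gzmc*) on GRCm38, with *Gzmb* next to them at 56258838 to 56262260. Their upstream sequences are shown because the genes differed together. Each line gives the 250 bases before the RefSeq start of the gene on build GRCm38.p6, 5′ to 3′ on the gene's own strand, with chr14:56234658-56234907 for *Gzmc*, chr14:56132594-56132843 for *Gzmd*, chr14:56120626-56120875 for *Gzme*, chr14:56211408-56211657 for *Gzmf* and chr14:56159580-56159829 for *Gzmg*. Capitals mark the Runx core TGTGGT on either strand (ACCACA on the other) and the cAMP response element TGACGTCA.
Gzmc: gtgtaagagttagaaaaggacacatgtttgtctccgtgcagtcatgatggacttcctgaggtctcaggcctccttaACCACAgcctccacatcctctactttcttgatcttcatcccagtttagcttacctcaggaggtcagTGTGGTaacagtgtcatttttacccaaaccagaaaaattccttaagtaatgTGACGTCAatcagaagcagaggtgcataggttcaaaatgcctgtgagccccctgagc
Gzmd: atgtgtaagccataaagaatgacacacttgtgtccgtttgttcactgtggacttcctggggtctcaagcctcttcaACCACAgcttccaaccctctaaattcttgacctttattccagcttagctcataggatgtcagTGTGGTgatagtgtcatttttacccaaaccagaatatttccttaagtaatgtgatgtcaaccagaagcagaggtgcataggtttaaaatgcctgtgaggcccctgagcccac
Gzme: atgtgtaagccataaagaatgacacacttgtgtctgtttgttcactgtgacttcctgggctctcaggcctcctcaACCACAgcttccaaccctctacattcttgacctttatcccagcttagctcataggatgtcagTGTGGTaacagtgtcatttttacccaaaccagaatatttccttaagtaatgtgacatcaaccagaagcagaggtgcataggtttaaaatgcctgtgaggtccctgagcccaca
Gzmf: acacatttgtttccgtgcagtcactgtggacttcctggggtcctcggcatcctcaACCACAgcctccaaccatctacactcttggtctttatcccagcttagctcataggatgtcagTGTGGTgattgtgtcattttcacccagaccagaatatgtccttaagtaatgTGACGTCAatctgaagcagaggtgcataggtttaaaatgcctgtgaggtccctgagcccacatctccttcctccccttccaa
Gzmg: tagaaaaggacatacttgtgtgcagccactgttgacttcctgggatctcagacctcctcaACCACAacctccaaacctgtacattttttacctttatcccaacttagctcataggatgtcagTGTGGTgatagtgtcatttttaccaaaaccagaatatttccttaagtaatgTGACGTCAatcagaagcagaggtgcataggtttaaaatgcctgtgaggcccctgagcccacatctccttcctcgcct
The Runx core stood on both strands in each of the 5 windows, at 103 to 108 bases before the start in *Gzmc* on the printed strand, and it occurs on either strand in 14.0% of the 32851 windows of this length. It also stood in the windows of *Gzmb*, *Gzma* and *Prf1*, so it is not particular to the 5 genes. The 5 windows are much alike in sequence, so their matches are not independent. TGACGTCA, which reads the same on both strands, stood in 3 of the 5 (*Gzmc*, *Gzmf* and *Gzmg*) and occurs in 1.55% of all windows. The AP-1 motif TGANTCA (6.75% of all windows), the interferon-stimulated response element (2.98%) and the STAT motif TTCNNNGAA (7.02%) were searched on both strands and found in none of the 5. A match is a run of letters and says nothing of binding in these cells.

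*Gzmf* gave 1736 UMIs in 6 of 39 UEIS KI 5-gene barcodes, and none in the 44 UEIS LSL barcodes. Set against a floor of 3 UMIs over the group, *Gzmf* was 633-fold higher in UEIS KI, a value that depends on the floor and is not a lower limit. *Gzmg* gave 715 UMIs in 5 UEIS KI barcodes and none in UEIS LSL, 261-fold higher on the same floor. On the log2 scale the value for *Gzmf* on this floor was 9.31, and 8.47 in C1q-low barcodes and 8.62 with at least 2 further NK genes. *Gzmd* gave 916 UMIs in 8 UEIS KI barcodes and 9 UMIs in 1 UEIS LSL barcode, and *Gzme* 549 UMIs in 7 and 3 UMIs in 1, a log2 ratio of 7.64 (6.09 to 9.93). These RNAs were held by few cells: *Gzmd* to *Gzmg* together gave 3916 UMIs in 9 UEIS KI barcodes (23.1%, 11.1 to 39.3) and 12 UMIs in 1 UEIS LSL barcode (2.27%, 0.0575 to 12.02). The highest UEIS KI barcode carried 1978 of the 3916 UMIs, or 50.5%, and the 3 highest 95.4%. The 3 held 1978, 984 and 774 such UMIs at total depths of 19365, 9123 and 5212 UMIs.

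*Gzmc* was seen in 19 of 39 UEIS KI barcodes, with 1848 UMIs (3960 CPM, 3782 to 4145) and a highest barcode of 524, and in 14 of 44 UEIS LSL barcodes, with 525 UMIs (1029 CPM, 943 to 1121) and a highest barcode of 179. The 3 highest barcodes, with 524, 251 and 162 UMIs in UEIS KI and 179, 167 and 110 UMIs in UEIS LSL, held 50.7% of the UEIS KI UMIs and 86.9% of the UEIS LSL UMIs. Among barcodes with any, the median was 64 UMIs in UEIS KI and 8 UMIs in UEIS LSL, and the libraries' barcodes overlapped. The log2 ratio was 1.94 (1.80 to 2.09), 1.76 in C1q-low barcodes, 1.46 with at least 2 further NK genes and 2.11 without the highest barcode of each library. Every UEIS KI and UEIS LSL barcode with *Gzmd*, *Gzme*, *Gzmf* or *Gzmg* also held *Gzmc*.

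A gene is called higher or lower below when it differed by at least 1.5-fold and its counting interval lay wholly on the same side of 1, and it is measured with at least 50 UMIs over both libraries. Of 15 measured genes of the granule and death ligand list, 8 were higher in UEIS KI and none was lower. Of all 3026 measured genes 6.77% were higher and 6.97% lower, of 1163 in C1q-low barcodes 9.11% and 11%, and of 2309 with at least 2 further NK genes 7.45% and 9.44%. *Prf1*, perforin, gave 231 UMIs in 27 UEIS KI barcodes (495 CPM) and 83 UMIs in 21 UEIS LSL barcodes (163 CPM), a log2 ratio of 1.61 (1.24 to 1.99). It was 0.84 in C1q-low barcodes and 0.56 with every barcode counted alike, whatever its depth. *Gzmb*, which activates caspases in the target, gave 332 UMIs in 20 UEIS KI barcodes and 107 in 21 UEIS LSL barcodes, a log2 ratio of 1.76 (1.44 to 2.09). A single barcode held 49.4% of the UEIS KI *Gzmb* UMIs, and without the highest barcode of each library the log2 ratio was 1.08, and with every barcode counted alike 0.70. *Serpinb6b*, of the serpins that inhibit granzymes in mouse, was the other called gene, at 67 UMIs in UEIS KI and 45 UMIs in UEIS LSL.

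Other granule genes stood closer to even. *Gzma* gave 256 UMIs in 21 UEIS KI barcodes and 287 UMIs in 26 UEIS LSL barcodes, with a log2 ratio of -0.04 (-0.28 to 0.21). In C1q-low barcodes it was -0.78, from 129 UMIs in UEIS KI and 242 UMIs in UEIS LSL, and *Gzma* was then called lower. *Nkg7*, a granule membrane protein, gave 222 and 295 UMIs, and *Srgn*, the core proteoglycan of the granule, 765 and 1096, with log2 ratios of -0.28 and -0.39. The list's median was 0.70 over the 5-gene barcodes and 0.22 in C1q-low barcodes, against a median of all genes of -0.00 and -0.04.

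**Figure D3:**
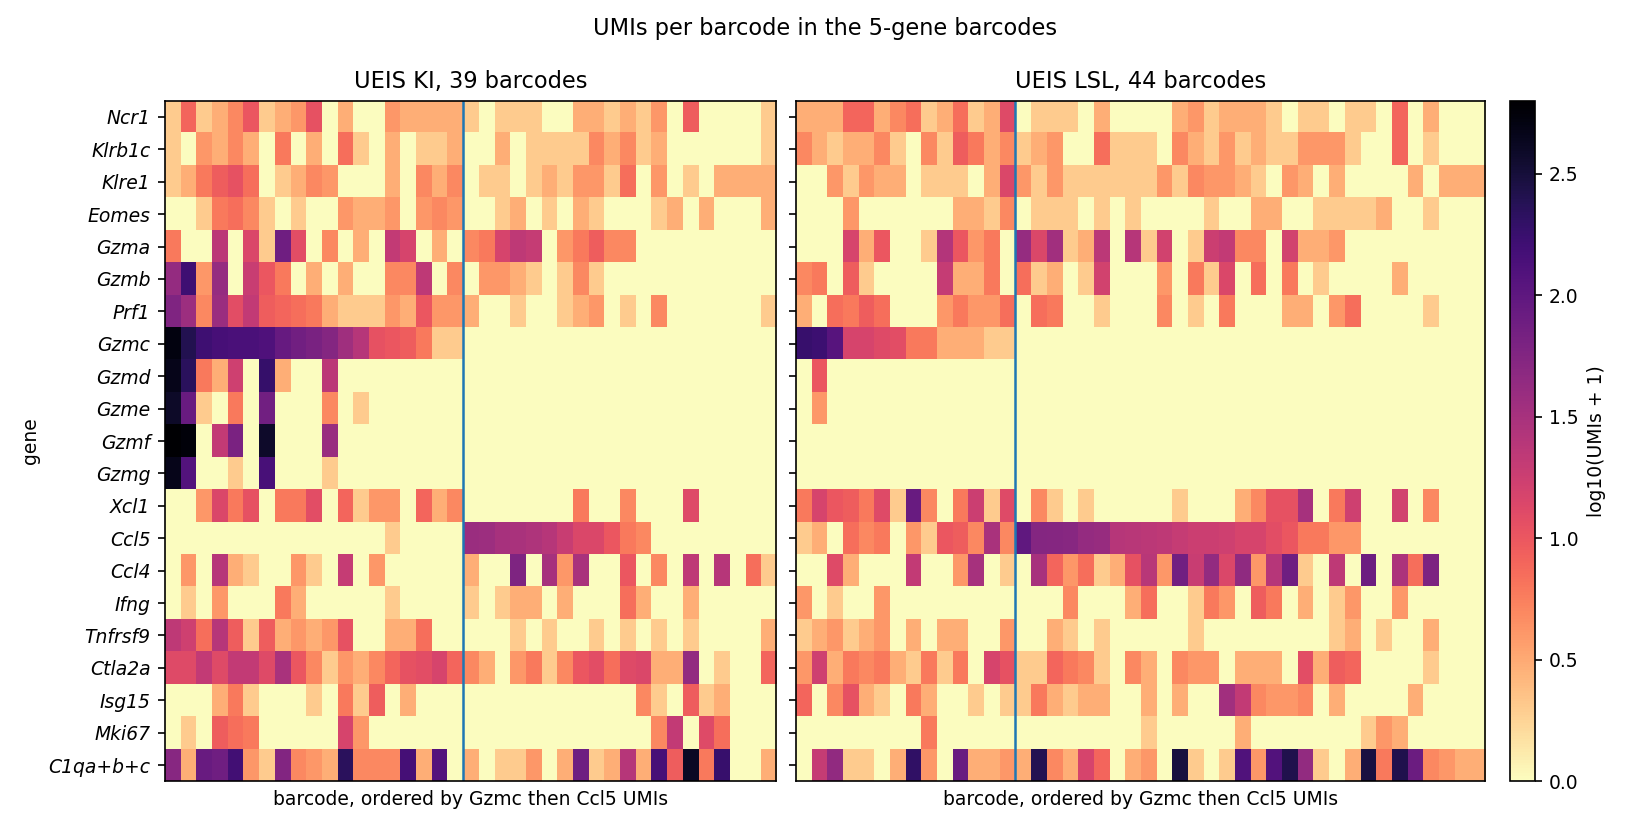
Each column is 1 5-gene barcode (UEIS KI left, 39; UEIS LSL right, 44), ordered by *Gzmc* and then *Ccl5* UMIs, and colour is log10 of UMIs plus 1 of each gene (rows). The vertical line ends the barcodes with *Gzmc*. *Gzmd* to *Gzmg* sit in 9 UEIS KI barcodes and 1 UEIS LSL barcode, and *Ccl5* is absent from 18 of the 19 UEIS KI barcodes with *Gzmc*.

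Secreted messengers stood the other way. Of 9 measured genes of the cytokine and chemokine list, 5 were lower in UEIS KI and none higher, with a list median of -0.84 (-0.95 in C1q-low barcodes). *Ccl5* gave 246 UMIs in 13 of 39 UEIS KI barcodes (527 CPM, 463 to 597) and 629 UMIs in 34 of 44 UEIS LSL barcodes (1233 CPM, 1138 to 1333), a log2 ratio of -1.23 (-1.44 to -1.01). The highest barcode held 37 *Ccl5* UMIs in UEIS KI and 95 in UEIS LSL. The ratio was -0.90 in C1q-low barcodes and -1.10 with at least 2 further NK genes, but -0.36 with every barcode counted alike. Barcodes with *Ccl5* had a median depth of 2096 UMIs in UEIS KI and 4734.5 UMIs in UEIS LSL. *Xcl1* gave 100 UMIs in 17 UEIS KI barcodes and 281 UMIs in 26 UEIS LSL barcodes, a log2 ratio of -1.36 (-1.71 to -1.03), with 29.9% of the UEIS LSL UMIs in 1 barcode. *Ccl3* and *Ccl4*, inflammatory chemokines, had log2 ratios of -1.11 and -1.25, and *Osm*, an interleukin-6 family cytokine, of -0.84. These 3 are also transcribed by macrophages, where *Ccl4* stood at 926 CPM in UEIS KI and 1242 CPM in UEIS LSL.

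*Ifng*, the effector cytokine, was scarce: 30 UMIs in 13 UEIS KI barcodes (64.3 CPM, 43.4 to 91.8) and 50 UMIs in 15 UEIS LSL barcodes (98.01 CPM, 72.7 to 129). Its log2 ratio was -0.61 (-1.31 to 0.07), so its interval included no difference, and in C1q-low barcodes, with 14 UMIs in UEIS KI and 39 UMIs in UEIS LSL, it was -1.35 (-2.35 to -0.44) and *Ifng* was then called lower. *Tnf* gave 41 and 36 UMIs, a log2 ratio of 0.32 (-0.37 to 1.004).

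Within UEIS KI the barcodes with *Gzmc* and those with *Ccl5* hardly met. *Ccl5* was seen in 1 of 19 UEIS KI barcodes with *Gzmc* (5.26%, 0.133 to 26.0) and in 12 of 20 without it (60%, 36.1 to 80.9). In UEIS LSL it was seen in 12 of 14 barcodes with *Gzmc* (85.7%, 57.2 to 98.2) and 22 of 30 without it (73.3%, 54.1 to 87.7). The UEIS KI barcodes with *Gzmc* were the deeper, at a median of 9270 UMIs against 3634 without. With every barcode thinned to 1000 UMIs, *Ccl5* was seen in 0 of 16 UEIS KI barcodes with *Gzmc* and 11 of 23 without, and in 4 of 9 and 23 of 35 in UEIS LSL. This pairing of genes was chosen after their values were seen. *Gzma* and *Ccl5* met in 11 of 21 UEIS KI barcodes with *Gzma*, and in 26 of 26 in UEIS LSL. Without *Gzma*, *Ccl5* was seen in 2 of 18 UEIS KI and 8 of 18 UEIS LSL barcodes, so it was seen more often beside *Gzma* in both libraries.

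Several genes were seen more often beside *Gzmc* at full depth. *Xcl1* was seen in 14 of 19 UEIS KI barcodes with *Gzmc* and 3 of 20 without, and in 13 of 14 and 13 of 30 in UEIS LSL. At 1000 UMIs per barcode it was seen in 4 of 16 and 2 of 23 in UEIS KI, with overlapping intervals, and in 6 of 9 and 9 of 35 in UEIS LSL. *Prf1* was seen in 19 of 19 and 8 of 20 in UEIS KI, and in 10 of 14 and 11 of 30 in UEIS LSL. Thinned to 1000 UMIs, *Prf1* was seen in 7 of 16 and 6 of 23 in UEIS KI, but in 0 of 9 and 8 of 35 in UEIS LSL. *Thy1*, the Thy1 surface antigen, was seen in 17 of 19 and 6 of 20 in UEIS KI, and in 10 of 14 and 8 of 30 in UEIS LSL. *Klrg1*, an inhibitory receptor for cadherins with few UMIs in all, was seen in 10 of 19 and 0 of 20 in UEIS KI, and in 4 of 14 and 3 of 30 in UEIS LSL. *Tm4sf1* was seen in no barcode with *Gzmc* of either library. These counts are over cells of 1 library each, with deeper cells on the *Gzmc* side, and *Thy1* and *Klrg1* were not counted at thinned depth. Barcodes with no *Nkg7*, *Il2rb* or *Prf1*, described above, lie on the side without *Gzmc* and lower the shares seen there.

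Receptors differed in few places. Of 8 measured activating receptors and adaptors outside the rule, 1 was higher in UEIS KI and none lower. That was *Tnfrsf9* (4-1BB, a costimulatory receptor that appears on activated lymphocytes), with 122 UMIs in 22 UEIS KI barcodes (262 CPM) and 32 UMIs in 18 UEIS LSL barcodes (62.7 CPM), a log2 ratio of 2.06 (1.49 to 2.67), of 1.12 in C1q-low barcodes and of 1.86 with at least 2 further NK genes. *Klrk1*, the NKG2D receptor, gave 101 and 106 UMIs, a log2 ratio of 0.06 (-0.35 to 0.47), and the adaptor *Tyrobp* (DAP12) 893 and 1039, a log2 ratio of -0.09. *Fcgr3*, the Fc receptor for antibody-coated targets, had a log2 ratio of -0.06 over all and -0.88 in C1q-low barcodes.

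Of 4 measured inhibitory receptors outside the rule, 2 were higher in UEIS KI. *Klra7* (Ly49G) gave 61 UMIs in 17 UEIS KI barcodes and 32 UMIs in 12 UEIS LSL barcodes, a log2 ratio of 1.06 (0.42 to 1.72). *Klrb1b* (NKR-P1B) had a log2 ratio of 0.87 (0.25 to 1.504), of 0.07 in C1q-low barcodes and of -0.092 with every barcode counted alike. *Klrd1* (CD94) gave 185 UMIs in 33 UEIS KI barcodes and 217 UMIs in 38 UEIS LSL barcodes, and *Klrc1* (NKG2A) 29 and 44 UMIs, with intervals that included no difference. Ly49 genes share sequence to unlike degrees near the transcript end. Of the 50-base windows in the last 500 bases, 4.66% of those of *Klra4*, 13.1% of those of *Klra8* and 36.5% of those of *Klra9* recur in another Ly49 transcript of GENCODE vM21. No such window of *Klra7* does. Among the granzymes the share was 0 for *Gzmb* and *Gzmc*, 19.96% for *Gzmd*, 15.3% for *Gzme*, 7.10% for *Gzmf* and 5.76% for *Gzmg*, so the split of reads among *Gzmd* to *Gzmg* is less certain than their sum.

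Lineage regulators were close to even. Of 13 measured transcription factors outside the rule, 1 was higher and 1 lower. *Hmgb2*, a chromatin protein tied to NK maturation and also to cell division, gave 474 UMIs in UEIS KI and 236 in UEIS LSL, and *Irf2*, needed for NK maturation in mouse, 29 and 53. *Id2*, which sustains innate lymphocytes, gave 305 and 307 UMIs, a log2 ratio of 0.12, and *Runx3* 120 and 108, a log2 ratio of 0.28. Of 7 measured early maturation genes 1 was higher and 1 lower, and of 7 late ones 1 was higher and 2 lower; *Xcl1*, *Ccl5* and *Prf1* of the lists above are among these. *Ctla2a* of the early list was higher, at 333 UMIs in 35 UEIS KI barcodes and 143 UMIs in 32 UEIS LSL barcodes, a log2 ratio of 1.35 (1.06 to 1.64). *Itgam* (CD11b) and *Cx3cr1*, late genes that macrophages share, had log2 ratios of -0.42 and -0.59. *Il2rb*, the receptor chain for interleukins 2 and 15, was higher, at 134 UMIs in UEIS KI and 89 in UEIS LSL, a log2 ratio of 0.72 over all, 0.18 in C1q-low barcodes and 0.06 with every barcode counted alike. The type I interferon receptor chains *Ifnar1*, with 34 UMIs in UEIS KI and 59 in UEIS LSL, and *Ifnar2*, with 38 and 64, were lower, the others called among 9 measured cytokine receptors.

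The series title ties UEIS to type I interferon signalling. Of 16 genes induced by type I interferon that were measured in the 5-gene barcodes, 8 were lower in UEIS KI and none higher, and the median log2 ratio was -0.70. *Isg15*, a ubiquitin-like modifier, gave 41 UMIs in 13 UEIS KI barcodes (87.9 CPM) and 121 UMIs in 25 UEIS LSL barcodes (237 CPM), a log2 ratio of -1.43 (-1.98 to -0.91). *Ifit1*, which binds viral RNA, gave 10 UMIs in 4 UEIS KI barcodes and 66 UMIs in 11 UEIS LSL barcodes, a log2 ratio of -2.59 (-3.72 to -1.63), and the 3 highest UEIS LSL barcodes, with 21, 15 and 14, held 75.8% of the UEIS LSL UMIs. *Bst2* and *Ifitm3*, antiviral membrane proteins, had log2 ratios of -1.33 and -0.93, while *Ly6e* gave 357 UMIs in UEIS KI and 439 in UEIS LSL. In C1q-low barcodes 6 list genes were measured, *Isg15* alone was called lower (16 UMIs in UEIS KI and 71 in UEIS LSL, log2 ratio -2.02) and the median was -0.40. A single UEIS LSL barcode held 33 of those 71 *Isg15* UMIs and a single UEIS KI barcode 8 of the 16, and without the highest barcode of each library the log2 ratio there was -2.13 (-3.44 to -1.01). Macrophage barcodes, whose RNA is also in these cells, showed *Isg15* at 41.1 CPM in UEIS KI and 101 CPM in UEIS LSL, and its part in the result was not tested. In CD8 T barcodes *Isg15* stood at 70.2 CPM in UEIS KI (14 UMIs) and 198 CPM in UEIS LSL (100 UMIs).

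Of 9 measured interferon-gamma-induced genes 3 were lower in UEIS KI and none higher. *Cxcl9* had no UMI in UEIS KI, against 142 UMIs in 3 UEIS LSL barcodes, with 84.5% of them in 1, and *Gbp2* 10 UMIs against 46, 69.6% of the UEIS LSL ones in 1 barcode. *Cxcl10* gave 119 and 211. In C1q-low barcodes 4 were measured, *Cxcl10* alone was called lower, at a log2 ratio of -1.16, and the median was -0.32, against -0.36 for the 9. Of the conventional dendritic cell markers 3 of 5 measured were lower in UEIS KI in the same 5-gene barcodes, and of the macrophage markers 3 of 14, and their part in the interferon-gamma counts was not tested. Of 9 measured MHC class I genes 2 were lower in UEIS KI, *H2-Q6* and *H2-T23*. *Sting1* gave 30 UMIs in UEIS KI and 25 in UEIS LSL, a log2 ratio of 0.39 (-0.42 to 1.22).

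Of 28 measured cell cycle genes, 22 were called higher and none lower in UEIS KI, with a median log2 ratio of 1.61. *Mki67*, the proliferation antigen, gave 79 UMIs in 10 UEIS KI barcodes and 14 UMIs in 6 UEIS LSL barcodes, and *Top2a*, the topoisomerase of dividing cells, 114 UMIs in 14 and 16 UMIs in 4. *Stmn1* gave 335 UMIs in 24 UEIS KI barcodes and 118 UMIs in 15 UEIS LSL barcodes. In C1q-low barcodes all 10 measured were higher, with a median of 2.299. Of the 13 measured with at least 2 further NK genes, 12 were higher, with a median of 1.83. *Mki67* was held mainly by few cells, the UEIS KI barcodes highest for it having 20, 14, 12 and 8 UMIs. The barcodes with 20 and 12 held 104 and 43 UMIs of *Tm4sf1* and none of the 6 further NK genes, and carried 32 of the 41 *Mki67* UMIs of the UEIS KI C1q-low barcodes. Those with 14 and 8 held 221 and 74 C1q UMIs, and each held 4 of the 6 further NK genes. *Mki67* also stood at 75.6 CPM in UEIS KI and 49.9 CPM in UEIS LSL macrophage barcodes. The part of RNA from other cells in the cell cycle counts was not tested.

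Of 21 measured glycolysis and hypoxia genes 6 were lower in UEIS KI and none higher, among them *Bnip3* with 40 UMIs in UEIS KI and 125 in UEIS LSL, and *Slc2a1*, the glucose transporter, with 47 and 105. *Ldha* gave 632 and 691, a log2 ratio of -0.00. Of 27 oxidative phosphorylation genes none was called in either direction. Of 14 genes for migration and residency, 1 was lower, *Cx3cr1*.

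**Figure D4:**
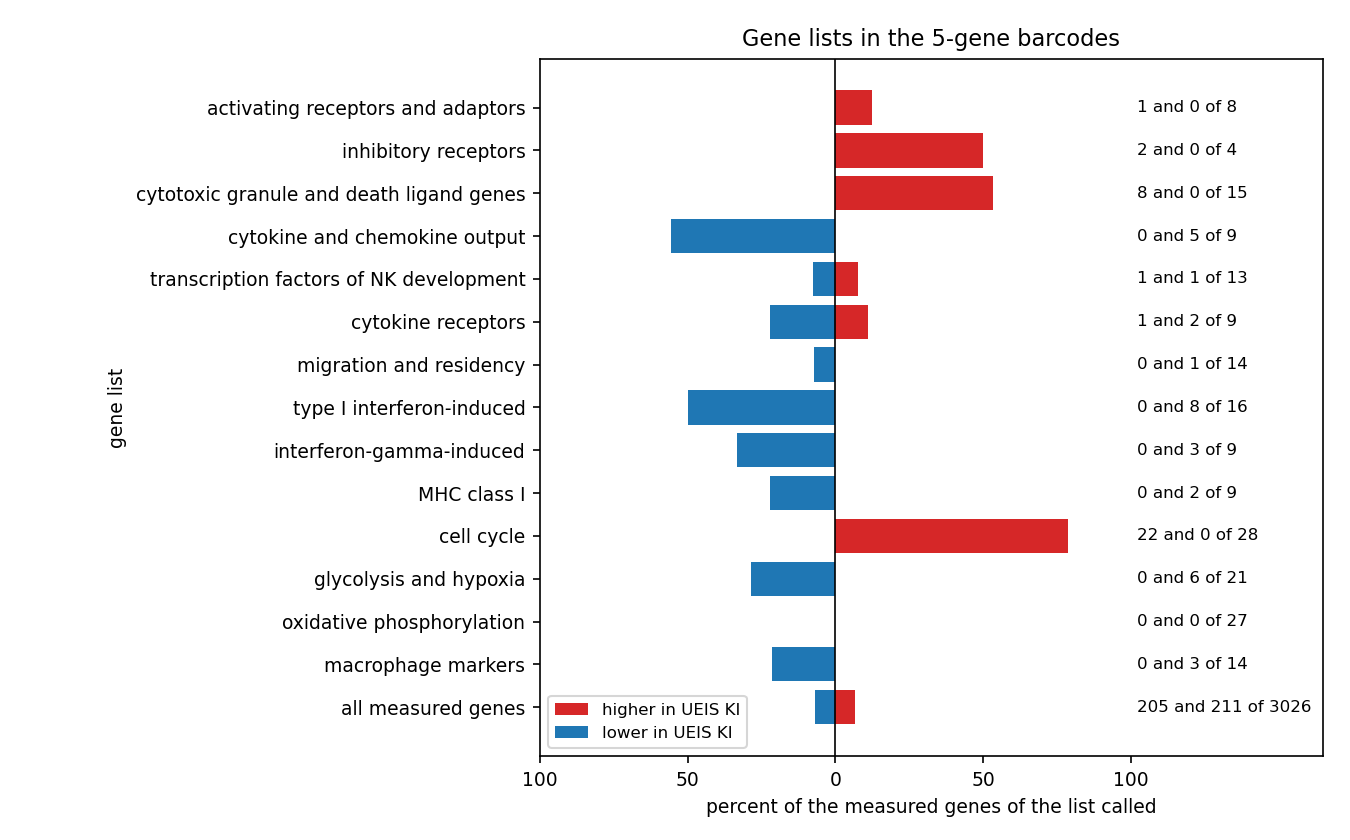
Bars give, for each gene list (rows), the percent of its measured genes that were called higher in UEIS KI (red, right) or lower (blue, left), by at least 1.5-fold and with an interval excluding 1, in the 5-gene barcodes, with the counts at the right and rule genes left out. The granule list leans right (8 and 0 of 15) and so does the cell cycle (22 and 0 of 28), while the cytokine list (0 and 5 of 9) and the type I interferon list (0 and 8 of 16) lean left.

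By the ranking over all genes at least 2 times as high in the 5-gene barcodes as in macrophage barcodes, the 12 highest in UEIS KI were the 5 granzymes *Gzmc* to *Gzmg*, *Gzmb*, *Tnfrsf9*, *Crabp1*, *Tnnt2*, *Ly6c1*, *H1f0* and *H1f10*. *Crabp1* came from 2 barcodes (133 UMIs in UEIS KI and none in UEIS LSL) and *Tnnt2* from 4 in UEIS KI and 1 in UEIS LSL, and both also lead the *Klra4*-only set. The 12 lowest were *Cd209a*, *Ifit1*, *Plac9a*, *Xcl1*, *Ccl5*, *Atf5*, *Isg15*, *Rrad*, *Col3a1*, *Gem*, *Crip2* and *Nr2f1*. *Cd209a*, a dendritic cell lectin, gave 3 UMIs in 2 UEIS KI barcodes and 62 UMIs in 6 UEIS LSL barcodes. *Col3a1*, a fibroblast collagen, gave 83 UMIs in 7 and 179 UMIs in 6. *Gem*, a small GTPase, gave 58 UMIs in 19 UEIS KI barcodes and 117 UMIs in 28 UEIS LSL barcodes, and was, with *Ccl5*, *Xcl1* and *Isg15*, 1 of the 4 of these seen in over 10 barcodes of both libraries. Thinned to 1000 UMIs, *Atf5* changed sign (interval -3.61 to 3.96), and *Nr2f1* did so in C1q-low barcodes (-1.05 to 1.30). After thinning *Crip2* had no UMI in UEIS KI, and *H1f10* and *Ly6c1* had none in UEIS LSL. The signs of their thinned ratios came from the floor, so they show no reversal.

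**Figure D5:**
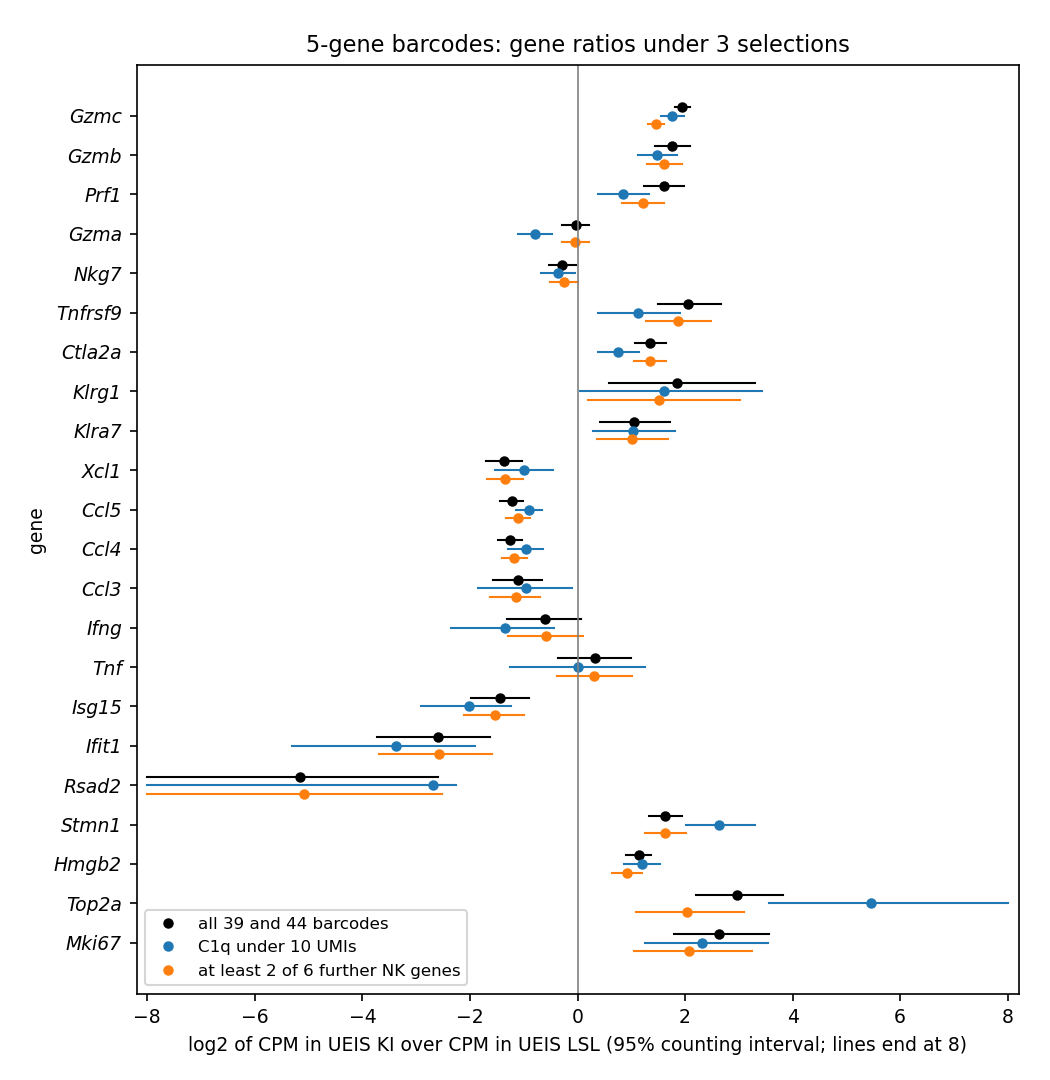
Points are log2 ratios of CPM, UEIS KI over UEIS LSL, with 95% counting intervals (lines end at 8 on the log2 axis), for 22 genes, in all 39 and 44 5-gene barcodes (black), C1q-low barcodes (blue) and barcodes with at least 2 further NK genes (orange). *Gzmc*, *Gzmb*, *Prf1* and the cell cycle genes lie above 0 and *Xcl1*, *Ccl5*, *Ccl4*, *Isg15* and *Ifit1* below it in all 3 selections, while *Gzma* lies near 0 in 2 and below it in C1q-low barcodes.

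The T cell barcodes of the same libraries are set beside the 5-gene barcodes here. By definition they held fewer than 2 UMIs of the 6 rule genes, so T cell barcodes rich in NK genes are not among them. The 39 and 44 barcodes held 89.1% of all *Gzmc* UMIs of the UEIS KI library and 49.9% of those of the UEIS LSL library. They held 73.5% and 77.6% of the *Xcl1*, 79.9% and 44.4% of the *Prf1*, and 66.5% and 72.1% of the *Gzma*. *Gzmc* stood at 0 UMIs in 20 UEIS KI CD8 T barcodes and at 5 UMIs in 40 UEIS LSL CD8 T barcodes. The barcodes left out of the 5-gene set for T cell RNA carried *Gzmc* at 1480 CPM in UEIS KI and 1083 CPM in UEIS LSL. The CD8 T level thus holds only for T cell barcodes with few NK gene UMIs. *Ccl5* and *Ifng* were more widely shared: the 5-gene barcodes held 4.772% and 4.9996% of the *Ccl5* UMIs and 29.7% and 6.23% of the *Ifng* UMIs. In CD8 T barcodes *Ccl5* stood at 2122 CPM in UEIS KI and 1466 CPM in UEIS LSL, and *Ifng* at 125 CPM (25 UMIs) and 302 CPM (153 UMIs). In macrophage barcodes *Gzma* was at 0.166 and 0.838 CPM and *Nkg7* at 0.538 and 3.38 CPM. Thinned to 1000 UMIs, *Nkg7* was seen in 56.4% of 39 UEIS KI and 52.3% of 44 UEIS LSL 5-gene barcodes, against 79.5% and 81.8% unthinned, and in 0.0487% and 0.192% of macrophage barcodes.

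In the *Klra4*-only barcodes, of 9255 measured genes 6.08% were higher and 4.81% lower in UEIS KI, and of 8445 with fewer than 10 C1q UMIs 6.74% and 4.78%. Over all members of the rule, of which these are most, the shares were 5.74% and 4.35% of 9743 genes, and 6.23% and 4.55% of 8755 with fewer than 10 C1q UMIs. Of 39 type I interferon-induced genes measured over all members 16 were lower and none higher, with a median log2 ratio of -0.57. *Matn2*, a matrix protein, gave 127 UMIs in 48 of 99 UEIS KI barcodes and 10 UMIs in 7 of 133 UEIS LSL barcodes, a log2 ratio of 4.32 (3.40 to 5.42). *Dcn*, a collagen-binding proteoglycan, gave 1734 UMIs in 74 and 421 UMIs in 31, and *Crabp1*, a retinoic acid carrier, 3064 UMIs in 64 and 795 UMIs in 37. *Cadm1*, an adhesion molecule, gave 42 UMIs in 10 UEIS KI barcodes and 630 UMIs in 106 UEIS LSL barcodes, a log2 ratio of -3.25 (-3.74 to -2.80). Of 34 cell cycle genes 3 were lower and none higher, and of 25 glycolysis and hypoxia genes 9 were higher and none lower, so neither list leaned the way it did in the 5-gene barcodes, a contrast that was not tested. Of 28 type I interferon-induced genes 12 were lower and the median was -0.55, but with fewer than 10 C1q UMIs 3 of 17 were lower and the median was 0.08.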

How the data were processed

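RNA of CD45+ cells sorted from MC38 tumours was sequenced with 10x Genomics 3' v3 chemistry, in 1 library per group. The authors deposited UMI counts per gene and barcode, not normalised, with a lowest total of 500 UMIs in UEIS KI and 501 UMIs in UEIS LSL. The counts were made with Cell Ranger, version 8.0.1 per the file headers and 2.1.1 per the submitters' processing notes, which name mm10. The annotation is not given in the sources used here, and 52081 of 55357 gene identifiers (94.1%) matched GENCODE vM21, the source of gene coordinates. Promoters came from RefSeq on GRCm38.p6, with all 5 granzymes matched.

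The members, markers and gene lists were chosen with earlier results of these data known. The division by *Klra4*, the selection by 6 further NK genes and leaving out a gene's highest barcode, also within C1q-low barcodes, were chosen after the values were seen. UMIs were summed per library and set and divided by the set's total (CPM). Levels carry exact Poisson bounds. A ratio has UEIS KI on top, and its bounds come from the exact binomial law given the gene's summed UMIs. Where a library had no UMI of a gene, 3 counts took its place. Shares have exact Clopper-Pearson intervals at 95%. No test was made. Genes named by rank needed 50 UMIs, 2 times the macrophage level and an interval excluding 1, ranked by the bound nearest 1. Predicted, mitochondrial, ribosomal, haemoglobin, receptor segment, sex-linked and rule genes were left out. Further genes were named from the lists. CD8 T barcodes were non-members with at least 2 UMIs of *Cd3* genes and at least 2 of *Cd8a* and *Cd8b1*, other T barcodes held at least 2 UMIs of *Cd3* genes or of *Trac*, and macrophage barcodes at least 10 C1q UMIs. Both T cell classes were limited to barcodes with fewer than 2 UMIs of the 6 rule genes. Doublets were the highest Scrublet scores, 0.8% per 1000 barcodes, and were kept in the main values. Scripts used Python 3.11.15, scipy 1.17.1 and scanpy 1.11.5 and were checked on simulated counts. Of the listed symbols, 12 were not found under that name in the matrices. Alternatives covered 14 planned settings and 3 added after the data were seen. Single values of some list genes are not reported here.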

Additional observations from a re-analysis of the deposited data

Results flagged for a closer look

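Of the genes in the receptor, granule and messenger lists, 3 had a log2 ratio of UEIS KI over UEIS LSL below 0 in the 5-gene barcodes and above 0 in the T cell barcodes of the same libraries, which is why they are given here. The T cell ratios were all under 1.5-fold, as was that of *Srgn* in the 5-gene barcodes. *Ccl5* had a log2 ratio of -1.23 in the 5-gene barcodes and 0.28 in T cell barcodes, from 798 UMIs in UEIS KI and 1700 in UEIS LSL. *Osm* had a log2 ratio of -0.84 and of 0.42 in T cell barcodes. *Srgn* had a log2 ratio of -0.39 and of 0.10 in T cell barcodes. With 1 library per group these differences between cell classes were not tested.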

How the results depend on the processing

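No paired analysis was possible because each group held 1 library, and leaving out a library was not possible either. Depth limits what genes with few UMIs can show, and 39 and 44 barcodes limit every share. For all members of the rule, 559 genes were called higher and 424 lower, with list medians of 0.53 (granule), -0.45 (cytokine), -0.57 (type I interferon) and -0.35 (interferon-gamma). With fewer than 10 C1q UMIs the granule median was 0.17 and the type I interferon median -0.31. *Tagln* was then at 1.05 on the floor of 3 counts, with no UMI in UEIS KI. With every barcode counted alike the granule median was 0.24. Thinned to 1000 UMIs, the C1q share was 2.90% in UEIS KI and 2.82% in UEIS LSL. Then 171 genes were higher and 155 lower, and the interferon medians were -0.23 (type I) and -0.64 (gamma). *Islr* changed sign, at 0.037 (-2.30 to 2.25). *Edn1* (0.94), *Spns2* (1.94) and *Tagln* (0.94) had no UMI in UEIS KI, so the signs of their ratios came from the floor. With at least 2 different rule genes the UEIS KI C1q share was 35.9%, 247 genes were higher, and the granule, cytokine and interferon-gamma medians were 1.31, -0.092 and 0.042. Without doublets the C1q share was 12.9% in UEIS KI and 16.3% in UEIS LSL. Per NK lineage UMI, 230 genes were higher and 1236 lower. Without *Klra4* in the rule the UEIS KI C1q share was 33.3%, 205 genes were higher and 211 lower, and the cytokine median was -0.84. *Btc* and *Hdgfl3* were each at -0.46 on the floor, with no UMI in UEIS LSL. Without the highest barcode of each gene *Tagln* was at 1.15, again on the floor with no UMI left in UEIS KI. With at least 2 of the 6 further NK genes the C1q share was 33.3% in UEIS KI and 32.6% in UEIS LSL. Then 215 genes were higher and 238 lower, and the cytokine, type I and interferon-gamma medians were -0.999, -0.91 and -0.61. *Acta2* (0.65) and *Nnmt* (0.063) had no UMI in UEIS KI, and *Btc* (-0.52) none in UEIS LSL. The signs of those ratios came from the floor.

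For the 5-gene barcodes, fewer than 10 C1q UMIs gave 106 genes higher and 128 lower, with fewer genes measured, a granule median of 0.22, a type I interferon median of -0.40 and *Nr2f1* at 0.12. With every barcode counted alike the granule median was 0.41, *Klra4* was at -0.045 and *Klrb1b* at -0.092. Thinned to 1000 UMIs, the C1q share was 10.3% in UEIS KI and 6.82% in UEIS LSL. Then 56 genes were higher and 70 lower, and the type I interferon median was -0.44. *Atf5* changed sign, at 0.17 (-3.61 to 3.96). *Crip2* (1.76) had no UMI in UEIS KI, and *H1f10* (-0.41) and *Ly6c1* (-0.41) none in UEIS LSL. The signs of those ratios came from the floor. With no *Cd3* UMI the granule median was 0.45. Without doublets *Nr2f1* was at 0.019. With genes of at least 100 UMIs the cytokine median was -1.11 and the type I interferon median -0.35. With at least 2 further NK genes *Atf5* was at 0.16. Apart from the signs set by the floor, the cause of these changes was not tested. The other values that answer a comparison moved little, 97 for all members and 104 for the 5-gene barcodes.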

Other observations

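Barcodes left out for T cell RNA, 7 in UEIS KI and 30 in UEIS LSL, carried *Gzmc* at 1480 CPM in UEIS KI and 1083 CPM in UEIS LSL, and *Ccl5* at 831 and 1939 CPM. They held 121 of the 432 *Gzmd* to *Gzmg* UMIs found outside the members in UEIS KI, and 7 of 23 in UEIS LSL. All 7 UEIS KI and all 30 UEIS LSL barcodes of this kind showed at least 2 of the 6 further NK genes.

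The UEIS KI barcode with most *Gzmd* to *Gzmg* RNA held 676 UMIs of *Gzmf*, 524 of *Gzmc*, 464 of *Gzmd*, 457 of *Gzmg*, 381 of *Gzme* and 57 of *Prf1* among its 19365 UMIs, with 50 C1q UMIs, 1 of the 6 further NK genes and no *Xcl1* or *Ccl5*. The 3 barcodes highest for these granzymes, all in UEIS KI, held no *Xcl1* and no *Ccl5*.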
